A study of Mus musculus with 15 samples.

Results

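The 10 genes described here encode the bile acid synthesis enzymes Cyp7a1, Cyp8b1, Cyp27a1, Cyp7b1, Cyp46a1, Cyp39a1, Hsd3b7, Akr1d1, Slc27a5 and Baat, measured by RNA-seq in the livers of 15 female C57BL/6 mice. The members were found by matching gene symbols to the Ensembl row IDs of the count table, which holds 55450 gene IDs. The low-count filter kept 15808 genes, all 10 members among them. At the start of the study, Adult mice were aged 6 months and received vehicle, Old mice were aged 22 months and received vehicle, and PDX mice were aged 22 months and received protectin DX, a lipid mediator derived from docosahexaenoic acid, at 30 ng per g of body weight. Gavage was daily, with corn oil as the vehicle in every group, and livers were collected after it, so that the mice were older at sampling. The duration was 9 weeks in the sample labels and 8 weeks in the series description. Each group had 5 mice, with 1 library per mouse, written below as A1 to A5, O1 to O5 and P1 to P5. The depth was 22424383 to 36070835 counted pairs in Adult livers, 25480180 to 29069346 in Old and 26113995 to 30139181 in PDX.

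Bile acids are made from cholesterol in hepatocytes and are the main route by which cholesterol leaves the body. The classical pathway starts with 7-alpha-hydroxylation of cholesterol by Cyp7a1, and Cyp8b1 adds the 12-alpha-hydroxyl group that makes cholic acid. The alternative pathway starts with side-chain oxidation by Cyp27a1 and continues with Cyp7b1, and a minor branch runs from Cyp46a1 to Cyp39a1. Hsd3b7 and Akr1d1 modify the steroid ring in all of these routes, and Slc27a5 and Baat join the finished acids to taurine or glycine.

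The hepatocyte list of 12 genes was led by Alb, which encodes albumin and lay between 34720 CPM in O5 and 180100 CPM in O1. CPM is the count scaled to a common effective library size. O2 and O5 stood apart from the other Old mice. The summed hepatocyte list was 112200 CPM in O2 and 99320 CPM in O5, and between 155700 and 266900 CPM in the other 13 mice. Alb was the largest part of that sum in every mouse, and not all genes of the list followed it. In O5, Trf at 28290 CPM and Tat at 13540 CPM lay above all Adult mice, which reached 21610 and 3697 CPM. Apoa1 and Ahsg lay within the Adult range in O5, and the other genes of the list, Alb among them, lay below it. The scaling factor of O2 was 1.33, against 0.884 to 1.08 in the other mice. Fold changes of the members in Old, and counts of genes called, are given with and without these 2 mice, and for gene lists other than the members this was chosen after seeing the data. In bulk liver, fewer cells of a type and less RNA per cell cannot be told apart.

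Per length of transcript, the members spanned a wide range of levels. In Adult, Slc27a5 was the most abundant at 672 ± 26.6 CPM per kilobase (SD, n = 5). Cyp27a1 followed at 260.2 ± 12.7, Baat at 157 ± 13.4, Akr1d1 at 111 ± 15.0 and Cyp8b1 at 50.0 ± 5.63 CPM per kilobase, and no neighbours in this part of the order overlapped between mice. Hsd3b7 at 24.9 ± 3.93, Cyp39a1 at 20.0 ± 4.20, and Cyp7a1 at 16.1 ± 12.6 CPM per kilobase each overlapped the next in order, which after Cyp7a1 was Cyp7b1 at 12.4 ± 0.468. Cyp46a1, best known as a brain enzyme, was lowest and did not overlap Cyp7b1, at 1.16 ± 0.253 CPM per kilobase, from 27 to 137 read pairs per mouse over the 15 mice. In Old and in PDX, Cyp8b1 stood in rank 3, above Baat, at 121 ± 63.7 and 124 ± 46.5 CPM per kilobase, but in both groups the 2 genes overlapped between mice. Cyp7b1 stood above Cyp7a1 in Old and in PDX, also with overlap.

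**Figure D1:**
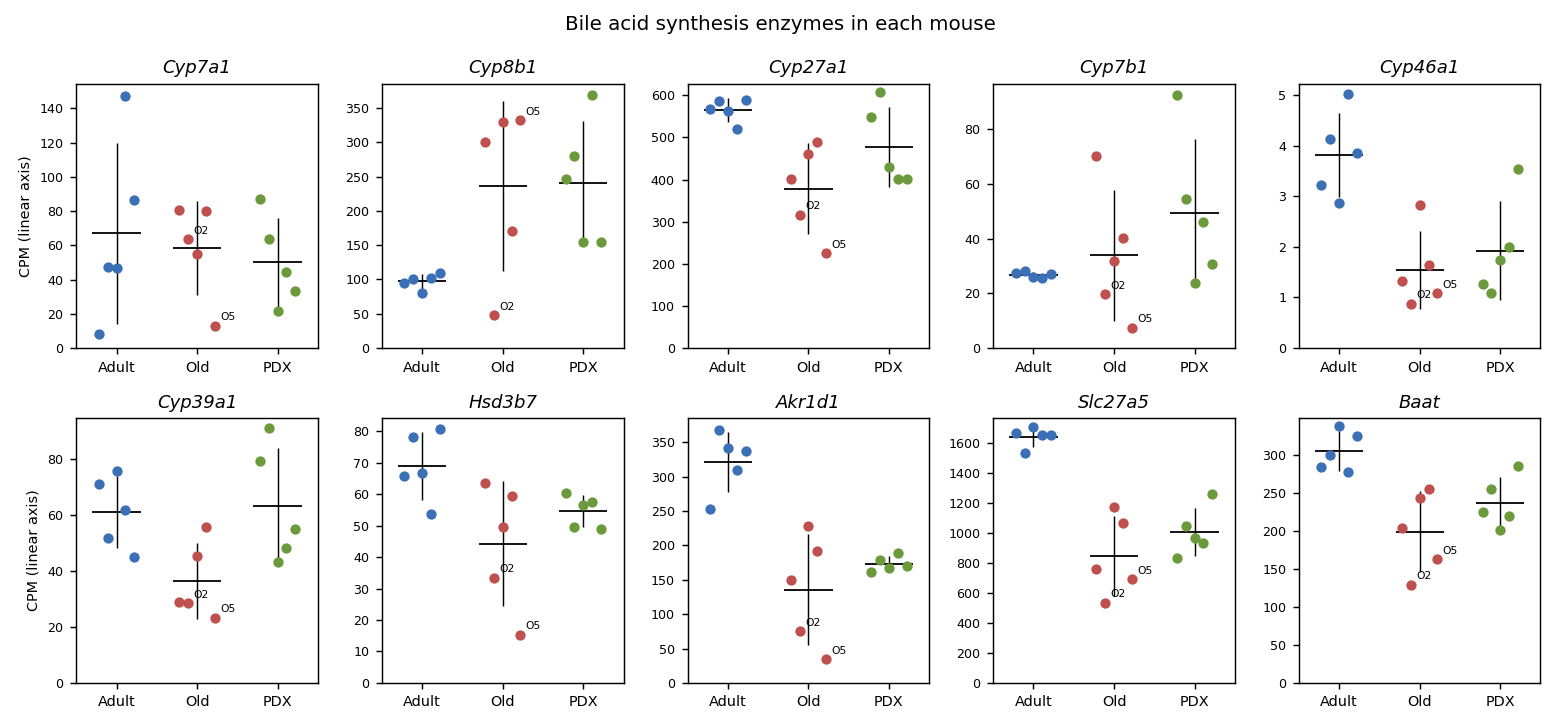
CPM of the 10 members in each of the 15 mice on linear axes that start at 0, with 1 point per mouse, horizontal lines at the group means and vertical lines of 1 SD (n = 5). Slc27a5, Akr1d1, Baat, Cyp27a1 and Cyp46a1 were lower in each Old mouse than in each Adult mouse, and Cyp8b1 was between 80.5 and 110 CPM in Adult and between 155 and 369 CPM in PDX.

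Aging was addressed by comparing Old with Adult mice. Of the 10 members, 4 were called lower and 0 higher in Old at an adjusted p under 0.05 (edgeR quasi-likelihood test, Benjamini-Hochberg adjustment over all 15808 genes). Over all genes tested, 6.78% were called, 2.07% lower and 4.71% higher. The members called lower were Slc27a5, Akr1d1, Cyp46a1 and Baat, so that both amidation enzymes and 1 of the 2 ring-modifying enzymes fell, while none of the 4 enzymes of the classical and alternative pathways passed the edgeR test. The median log2 fold change was -0.63 over the 10 members and 0.07 over all genes tested. At an unadjusted p under 0.05 there were 8 members, against 27.7% of all genes. DESeq2 called 6 members, the same 4 with Cyp27a1 lower and Cyp8b1 higher, where it called 13.5% of the 19262 genes to which it gave an adjusted p.

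Cyp7a1, the rate-limiting enzyme of the classical pathway, was the most variable member in Adult, with a coefficient of variation of 78.6%, against 47.4% in Old and 52.1% in PDX. It was at 7.98, 47.1, 46.6, 147.5 and 86.6 CPM in A1 to A5. In the Old mice O1 to O5 it was at 80.8, 63.7, 54.7, 80.1 and 13.1 CPM. In P1 to P5 it was at 87.4, 63.9, 21.4, 44.3 and 33.3 CPM. The 3 groups overlapped throughout, and the lowest and the highest values of all 15 mice were both in Adult, A1 and A4, which were 18.5-fold apart. The log2 fold change of Cyp7a1 was -0.20 (SE 0.60, adjusted p = 0.862 by edgeR) in Old versus Adult, and its sign turned to 0.11 without O2 and O5 and to 0.31 without A4. Over its 18 alternatives the adjusted p ranged from 0.591 to 0.961.

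Cyp8b1, the 12-alpha-hydroxylase, was narrow in Adult, at 94.4, 100.5, 80.5, 102 and 109.8 CPM in A1 to A5. In Old it was at 300.1, 48.1, 329.7, 170.4 and 332 CPM in O1 to O5. In PDX it was at 246, 279.7, 155, 369 and 155 CPM in P1 to P5. Each PDX mouse and 4 of the 5 Old mice lay above each Adult mouse, and O2 lay below all of them. The log2 fold change in Old versus Adult was 1.28 (SE 0.40), a 2.42-fold higher level that missed the threshold with an adjusted p of 0.0612 by edgeR. Without O2 it was 1.55 with an adjusted p of 0.00827 by edgeR, and without O2 and O5 it was 1.46 with an adjusted p of 0.0073. DESeq2 gave an adjusted p of 0.0161. Of its 18 alternatives only these 3 called Cyp8b1, and the adjusted p ranged from 0.0073 to 0.183.

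In the alternative pathway, Cyp27a1, the mitochondrial sterol 27-hydroxylase, was at 566, 587, 563, 521 and 590.1 CPM in A1 to A5. It was at 400.4, 317, 462, 489 and 225 CPM in O1 to O5, and at 549, 609, 430.4, 402 and 402 CPM in P1 to P5. Each Old mouse lay below each Adult mouse, with O5 lowest, and PDX overlapped both groups. The log2 fold change was -0.58 (SE 0.20, adjusted p = 0.0802 by edgeR) in Old versus Adult, and without O2 and O5 the log2 fold change was -0.32 with an adjusted p of 0.188. DESeq2 called it lower with an adjusted p of 0.0387, and over its 18 alternatives the adjusted p ranged from that value to 0.189.

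Cyp7b1, the oxysterol 7-alpha-hydroxylase, was the least variable member in Adult, at 27.6, 28.1, 26.0, 25.7 and 27.1 CPM in A1 to A5, a coefficient of variation of 3.77%. It was at 70.3, 19.7, 31.8, 40.3 and 7.39 CPM in O1 to O5, and at 92.5, 54.5, 23.8, 46.3 and 30.8 CPM in P1 to P5. The spread was wider in the aged groups, with coefficients of variation of 70.3% in Old and 54.2% in PDX, and Old and PDX mice lay on both sides of the Adult values. No test of the difference in spread was made. The log2 fold change was 0.33 (SE 0.45, adjusted p = 0.668 by edgeR) in Old versus Adult. It was 0.83 without O2 and O5, with an adjusted p of 0.154 by edgeR, the lowest over its 18 alternatives, and its sign turned to -0.10 without O1.

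In the minor branch, Cyp46a1, the cholesterol 24-hydroxylase, was at 3.23, 4.12, 2.87, 5.01 and 3.85 CPM in A1 to A5. It was at 1.32, 0.878, 2.83, 1.63 and 1.08 CPM in O1 to O5, and at 1.26, 1.08, 1.74, 2.00 and 3.54 CPM in P1 to P5. Each Old mouse lay below each Adult mouse, with O3 just below A3, and P5 lay within the Adult range. The log2 fold change was -1.30 (SE 0.36, adjusted p = 0.0419 by edgeR) in Old versus Adult, and without O2 and O5 it was -0.97 with an adjusted p of 0.121, the highest over its 18 alternatives, of which 7 called it. Cyp39a1, the oxysterol 7-alpha-hydroxylase of the same branch, ranged from 45.0 to 75.7 CPM in Adult, from 23.2 to 55.8 in Old and from 43.0 to 91.1 in PDX. Its log2 fold change in Old versus Adult was -0.75 (SE 0.26, adjusted p = 0.0852 by edgeR). Without O2 and O5 it was -0.48 with an adjusted p of 0.285, and without O4 it was -0.96 with an adjusted p of 0.0371, the highest and the lowest adjusted p over its 18 alternatives.

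Akr1d1, the steroid 5-beta-reductase, was at 254, 368, 341, 309.5 and 338 CPM in A1 to A5. It was at 149, 74.8, 228, 192 and 34.6 CPM in O1 to O5, and at 162, 178, 167, 189 and 170.3 CPM in P1 to P5. All 10 aged mice lay below all Adult mice, the PDX mice lay close together, and O2 and O5 were the lowest of the 15. Akr1d1 fell by 1.25 on the log2 scale in Old versus Adult (SE 0.36, adjusted p = 0.0488 by edgeR), and without O2 and O5 the log2 fold change was -0.75 with an adjusted p of 0.01. Of its 18 alternatives 7 called Akr1d1, with adjusted p-values from 0.00939 to 0.156. Hsd3b7, the 3-beta-hydroxysteroid dehydrogenase that acts before Akr1d1, ranged from 53.8 to 80.9 CPM in Adult, from 15.4 to 63.6 in Old and from 48.9 to 60.4 in PDX. Its log2 fold change in Old versus Adult was -0.64 (SE 0.28, adjusted p = 0.146 by edgeR), and without O2 and O5 the log2 fold change was -0.25 with an adjusted p of 0.264, within a range of 0.0791 to 0.302 over its 18 alternatives.

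Slc27a5, the bile acid CoA ligase, was at 1662, 1529, 1702, 1650 and 1652 CPM in A1 to A5. It was at 761, 535, 1174, 1068 and 691 CPM in O1 to O5, and at 832, 1047, 963, 933 and 1259 CPM in P1 to P5. Adult was tight, and all 10 aged mice lay below it, with O2 lowest. Slc27a5 fell by 0.95 on the log2 scale in Old versus Adult (SE 0.20, adjusted p = 0.0216 by edgeR), and without O2 and O5 the log2 fold change was -0.70 with an adjusted p of 0.0175. Of its 18 alternatives 11 called it, with adjusted p-values from 0.000142 to 0.0969.

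Baat, which joins the activated acid to taurine or glycine, was at 284, 301, 338, 277.5 and 326 CPM in A1 to A5. It was at 204, 129.5, 244, 255 and 163 CPM in O1 to O5, and at 226, 255, 202, 219.5 and 286 CPM in P1 to P5. Each Old mouse lay below each Adult mouse, and P5 lay within the Adult range. Baat fell by 0.62 on the log2 scale in Old versus Adult (SE 0.18, adjusted p = 0.0492 by edgeR), and without O2 and O5 the log2 fold change was -0.37 with an adjusted p of 0.0906. Of its 18 alternatives 3 called it, with adjusted p-values from 0.0125 to 0.154.

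Between Adult and Old, 5 of the 10 members did not overlap with Old below, against 4.48% of all genes tested, and 0 did not overlap with Old above, against 3.65%. Without O2 and O5, 3 members were called by edgeR, Slc27a5 and Akr1d1 lower and Cyp8b1 higher, where 7.12% of 16275 genes were called, 4.85% higher and 2.26% lower. The calls of the members were close to the threshold. Leaving out any 1 of A1, A2, A3, A4 or A5 left 0 members called, where 1.51%, 1.17%, 1.21%, 1.28% and 0.97% of genes were called. Leaving out O1 left 1 member and 9.85% of genes, O2 left 2 and 4.32%, O3 left 4 and 13.5%, O4 left 5 and 9.92%, and O5 left 3 and 13.2%, so that without O1 fewer members and more genes were called than with all mice. With only the 10 mice compared in the fit, edgeR called 0 members and 0.698% of genes.

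The treatment was addressed by comparing PDX with Old mice. Of the 10 members 0 were called by edgeR at an adjusted p under 0.05 or under 0.25, and over all genes 0% were called, with a smallest adjusted p of 0.793. At an unadjusted p under 0.05 there were 5.28% of genes, among them 1 member, Cyp39a1, and DESeq2 called 0 members and 1 gene, 0.00344% of those to which it gave an adjusted p. Cyp39a1 had a log2 fold change of 0.80 (SE 0.26, unadjusted p = 0.00825, adjusted p = 0.793 by edgeR) in PDX versus Old, and without O2 and O5 it was 0.55 with an adjusted p of 0.586. The other 9 members had log2 fold changes from -0.22 for Cyp7a1 to 0.55 for Cyp7b1, and without O2 and O5 from -0.52 for Cyp7a1 to 0.09 for Cyp27a1. No member was free of overlap between PDX and Old, against 0.145% of genes with PDX above and 0.196% with PDX below. The median log2 fold change of the members was 0.31 in PDX versus Old, against -0.07 over all genes, and 0.01 without O2 and O5.

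PDX and Adult mice were also compared, which shares the Adult mice with the comparison of Old and Adult. Of the 10 members 0 were called by edgeR, where 2.66% of all genes were called, 1.76% higher and 0.898% lower. At an unadjusted p under 0.05 there were 4 members, against 20.6% of all genes, and DESeq2 called 2, Cyp8b1 and Slc27a5, where it called 7.41% of genes. Cyp8b1 did not overlap with PDX above, against 10.5% of genes, and Akr1d1 and Slc27a5 did not overlap with PDX below, against 9.34%. The log2 fold changes were 1.31 (SE 0.40, adjusted p = 0.0893 by edgeR) for Cyp8b1, -0.89 (SE 0.35, adjusted p = 0.169) for Akr1d1 and -0.70 (SE 0.20, adjusted p = 0.0776) for Slc27a5. The calls in this comparison changed with the Old mice that were in the fit. The groups share the estimate of the spread, and the refits also changed the filter and the scaling. Which of these moved the calls was not tested. Without O2 and O5, edgeR called 6 members, Cyp8b1 and Cyp7b1 higher and Cyp46a1, Akr1d1, Slc27a5 and Baat lower, where 24.6% of genes were called, 14.4% higher and 10.2% lower. With only the 10 Adult and PDX mice in the fit, edgeR called those 6 and Hsd3b7, which was lower, where 29.6% of genes were called, 16.1% higher and 13.5% lower. Leaving out P5 alone gave 1 member, Cyp46a1, with a log2 fold change of -1.33 and an adjusted p of 0.0445 by edgeR, where 3.64% of genes were called.

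**Figure D2:**
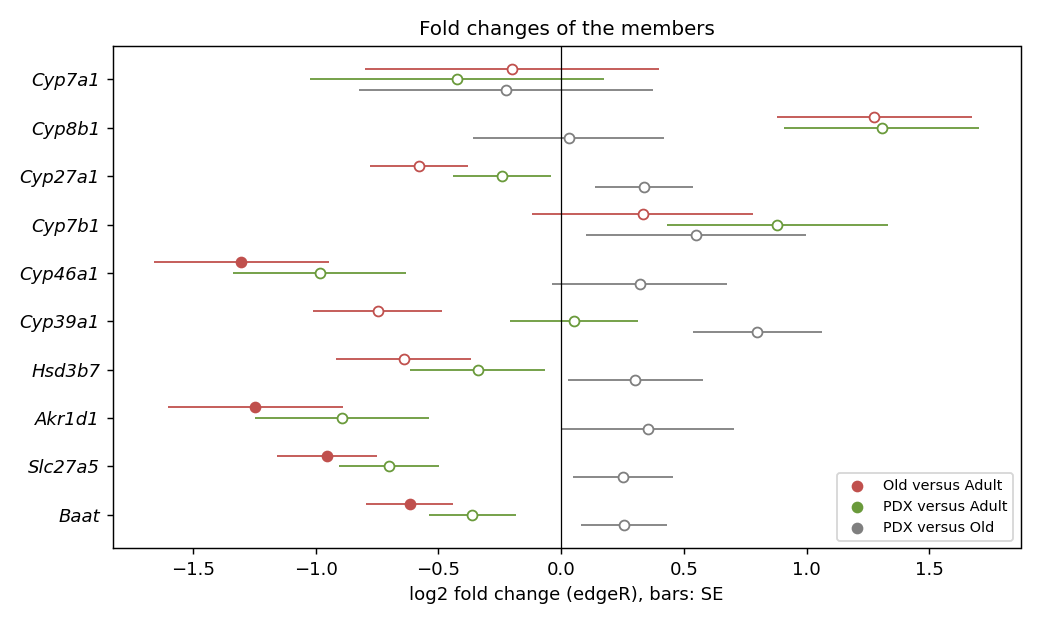
log2 fold changes of the 10 members in Old versus Adult, PDX versus Adult and PDX versus Old from the edgeR fit of all 15 mice, with bars of 1 SE and filled points for an adjusted p under 0.05. Filled points are Slc27a5, Akr1d1, Cyp46a1 and Baat in Old versus Adult.

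The balance of the pathways was read within each mouse as log2 ratios of CPM per kilobase. The ratio of Cyp7a1 to Cyp7b1 was -2.74, -0.20, -0.11, 1.57 and 0.73 in A1 to A5. It was -0.75, 0.74, -0.16, 0.05 and -0.12 in O1 to O5, and -1.03, -0.72, -1.10, -1.01 and -0.83 in P1 to P5. Cyp7b1 exceeded Cyp7a1 per length in all 5 PDX mice, and 4 of the 5 Old mice lay above all PDX mice, with O1 inside their range. The means were -0.05 ± 0.53 in Old and -0.94 ± 0.16 in PDX (SD, n = 5), a difference of -0.89 with p = 0.0159 in a two-sided exact permutation test and 0.143 after Benjamini-Hochberg adjustment over the 9 ratio tests. A single test of 5 against 5 or 4 against 5 mice could not pass after this adjustment, since its smallest p, 0.00794, becomes 0.0714 where no other of the 9 tests is as low. Without O1, the Old mouse inside the PDX range, the difference was -1.06 with that adjusted exact p of 0.0714. Without O2 and O5 it was -0.65 with an adjusted exact p of 0.321, where 3 against 5 mice can give no single value below 0.161. Over its 14 alternatives the difference lay between -1.06 and -0.65, and the adjusted p-values, which ranged from 0.0714 to 0.562, do not show whether it holds.

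The other ratios did not pass with all 15 mice. Cyp7a1 to Cyp27a1 was at -4.54 ± 1.61 in Adult, -3.82 ± 0.75 in Old and -4.34 ± 0.62 in PDX on the log2 scale, with a smallest exact permutation p of 0.238 over its 3 comparisons (n = 5 each). Cyp8b1 to Cyp7a1, a ratio within the classical pathway, was at 2.15 ± 1.53 in Adult, 3.07 ± 1.88 in Old and 3.45 ± 0.62 in PDX, with a smallest exact permutation p of 0.135 (n = 5 each). A1 held the extreme Adult value in all 3 ratios. Without A1, PDX versus Adult gave -1.44 for Cyp7a1 to Cyp7b1 and 1.93 for Cyp8b1 to Cyp7a1, both with an adjusted exact p of 0.0357, within a range of 0.0357 to 0.787 over the 14 alternatives of each, of which no other passed.

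**Figure D3:**
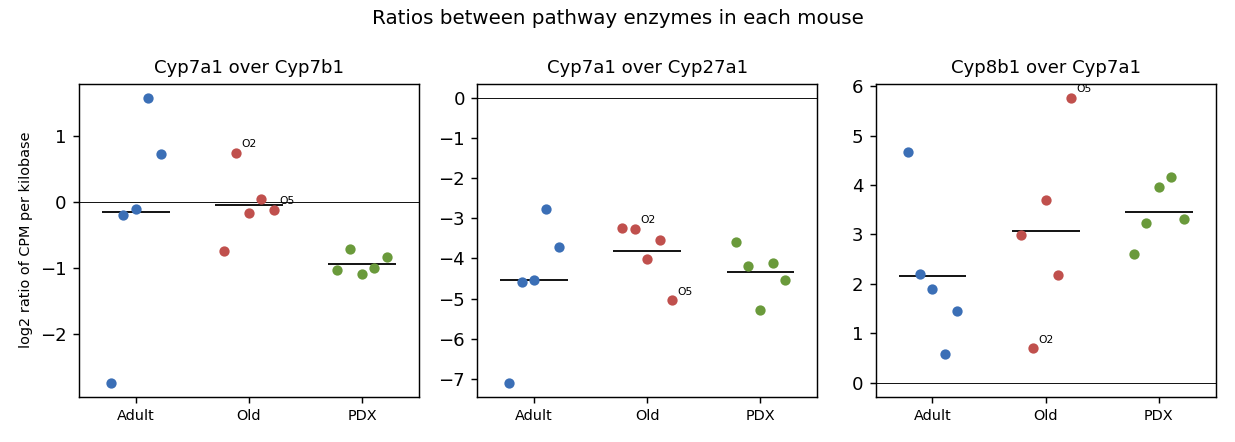
log2 ratios of CPM per kilobase in each mouse for Cyp7a1 over Cyp7b1, Cyp7a1 over Cyp27a1 and Cyp8b1 over Cyp7a1, with 1 point per mouse and lines at the group means. The PDX mice lie between -1.10 and -0.72 for Cyp7a1 over Cyp7b1.

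Of 15 other enzymes of bile acid synthesis, 14 were tested, and 5 were called lower and 0 higher in Old versus Adult by edgeR. Over all genes, 2.07% were called lower and 4.71% higher. The median log2 fold change was -0.51, against 0.07 over all genes. Among the called genes the largest fall was in Ehhadh, a peroxisomal beta-oxidation enzyme, with a log2 fold change of -1.32 (SE 0.26, adjusted p = 0.0151 by edgeR). Scp2, Abcd3 and Fdx1 followed at -0.79, -0.75 and -0.71, the last of these being the electron carrier of Cyp27a1. Akr1c14, named after its values were seen, had -1.19 and was not called (adjusted p = 0.102 by edgeR). Without O2 and O5, 5 of 14 were called lower, with Ehhadh, Scp2, Fdx1 and Akr1c14 among them and Abcd3 not, where 2.26% of all genes were called lower. In PDX versus Adult, 2 of 14 were called lower, Ehhadh at -1.55 and Fdx1 at -0.67, where 0.898% of all genes were called lower. Without O2 and O5, 9 were called lower, where 10.2% of all genes were called lower. In PDX versus Old 0 were called by edgeR or DESeq2, with 0 at an unadjusted p under 0.05, against 5.28% of all genes. Of 22 regulators of the pathway, 21 were tested, and 0 were called in Old versus Adult by edgeR, with or without O2 and O5. With all mice, 7 were at an unadjusted p under 0.05, against 27.7% of all genes. DESeq2 called 2, where it called 13.5% of genes. Nr1h4, the bile acid receptor FXR, had a log2 fold change of -0.80 (SE 0.25, adjusted p = 0.0606 by edgeR), and its target Nr0b2 of -0.97 (SE 0.45, adjusted p = 0.172). The smallest adjusted p of the 21, in another regulator, was 0.0526 by edgeR. O5 was the lowest of the 15 mice for both named genes, with Nr1h4 at 37.5 CPM and Nr0b2 at 3.43 CPM. In PDX versus Adult 1 regulator, Nr1i3, was called lower, at -1.05 (adjusted p = 0.0432 by edgeR), where 0.898% of all genes were called lower. Without O2 and O5, 5 of 21 were called lower, where 10.2% of all genes were called lower. Fgf15, which signals from the ileum to the liver, had 0 counts in all 15 mice.

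Correlations across the 15 mice were computed for 13 pairs on log2 CPM. Lcn2, an acute-phase gene, lay between 5.74 and 24 CPM in Adult and between 97.4 and 1201 CPM in the aged mice, so no pooled coefficient is given for its 3 pairs. Of the other 10 pairs, 0 passed over all mice after adjustment over the 13, with a smallest adjusted permutation p of 0.246 and 1 pair at an unadjusted p under 0.05. With group means removed, 1 of 13 pairs passed. Cyp7a1 and Cyp7b1 had r = 0.58 (permutation p = 0.00173, adjusted p = 0.0225) and a Spearman rho of 0.53 (permutation p = 0.0326, adjusted p = 0.212). That relation rested in part on a few mice, since r was 0.39 without O1 and O5, the mice farthest from the median of Cyp7b1, and 0.40 without O2 and O5, with an adjusted permutation p of 0.3. Cyp27a1 and Cyp7b1 had a larger r of 0.798 but did not pass (permutation p = 0.0159, adjusted p = 0.104). Their rho was 0.818 (permutation p = 0.00867, adjusted p = 0.113). For this pair r was 0.725 without O1 and O5 and 0.41 without O2 and O5.

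Dbp, an output gene of the circadian clock, was at 189 CPM in A4, 56.7 in O3 and 40.5 in A1, and between 1.30 and 20.8 CPM in the other 12 mice. Cyp7a1, whose transcript is known to cycle over the day, had r = -0.15 with Dbp over all mice (permutation p = 0.599, adjusted p = 0.812) and a rho of -0.24 (permutation p = 0.397, adjusted p = 0.638). Without A4 and O3, the mice farthest from the median of Dbp, r was -0.80. The part of sampling time in the levels of Cyp7a1 was not tested.

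By Spearman rho over the 15 mice, the genes most like Cyp7a1 among 12011 genes were Map3k4 (0.854), Slc16a13 (0.825) and Mlh3 (0.807). Those most like Cyp8b1 were Gnat1 (0.886), Catsper2 (0.871) and Yeats4 (0.864), and those most like Cyp7b1 were Lgr4 (0.954), Yif1b (0.921) and As3mt (0.918). These values pool the 3 groups, so that differences between group means enter them, most for Cyp8b1, which was lower in Adult than in PDX. With group means removed, a version added after seeing the data, rho was 0.764 for Gnat1, 0.786 for Catsper2 and 0.575 for Yeats4 with Cyp8b1. It was between 0.771 and 0.879 for the 3 genes named for Cyp7a1 and between 0.868 and 0.939 for those named for Cyp7b1, and the search itself was not repeated on these values.

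Some markers of other cells and of hepatocyte state moved with age in the same mice. Over all genes in Old versus Adult, edgeR called 4.71% higher and 2.07% lower, and 4.85% and 2.26% without O2 and O5. With all mice, 27.7% of genes were at an unadjusted p under 0.05, and DESeq2 called 13.5%. Of 8 neutrophil markers, 8 were called higher in Old versus Adult by edgeR, with Prtn3 the most abundant, and 3 without O2 and O5, Mpo, Elane and Prtn3. Camp, Mpo and Elane were at 0.137 CPM or less in every Adult mouse and passed the filter through the aged mice. Their place among the genes tested thus depended on being high in those mice. The summed level of the 8 markers was 4.16, 3.52, 6.34, 4.46 and 2.50 CPM in A1 to A5, and all aged mice lay above these. It was 30.4, 265.6, 19.8, 73.3 and 44.4 CPM in O1 to O5 and 89.7, 199.6, 41.4, 87.4 and 58.4 CPM in P1 to P5. Of 9 Kupffer cell and macrophage markers 1 was called higher, with or without O2 and O5, and their sum was 3429 CPM in O2 against 412 to 1719 CPM in the other mice, with Cd5l the most abundant. Of 19 acute-phase genes 7 were called higher in Old, with or without O2 and O5, and their sum was between 25380 and 31430 CPM in Adult, between 31550 and 132000 in Old and between 43370 and 120700 in PDX, with Hpx the most abundant. Of 12 hepatocyte identity genes 0 were called in Old versus Adult by edgeR, with 4 at an unadjusted p under 0.05 and 3 called by DESeq2, and without O2 and O5 edgeR called 3 higher, Apoa1, Ahsg and Trf. Pericentral hepatocyte genes, among which Cyp2e1 was the most abundant, summed to between 13280 and 16140 CPM in Adult, between 4200 and 9152 in Old and between 5710 and 7407 in PDX, and 3 of 14 were called lower in Old, against 4 without O2 and O5. Pancreatic acinar markers summed to 264 CPM in O3, 307 in O4 and 68.6 in P5, against 2.92 to 25.5 CPM in the other 12 mice, with Cela1 the most abundant and Prss1 at 0 in all mice, and 1 of 2 tested was called higher in Old. Without O2 and O5, 6 of 6 were called higher, but that count was set in part by the filter. Prss2, Cpa1, Cpb1 and Pnlip passed it there through O3, O4 and P5, where they were high. In the other mice of that fit these genes lay at 0.394 CPM or less. Of the remaining lists, B cell and plasma cell markers had 4 of 7 called higher in Old versus Adult, stellate cell markers 2 of 8 and small intestine markers 2 of 4, and without O2 and O5 these were 4, 0 and 1. Periportal hepatocyte genes had 2 of 13 called lower and clock genes 1 of 18, which without O2 and O5 were 2 and 0. Cholangiocyte, T cell and NK cell, erythroid and sinusoidal endothelial markers had 0 called by edgeR, with or without O2 and O5. In that order, 6, 4, 0 and 4 were at an unadjusted p under 0.05, and DESeq2 called 3, 1, 0 and 0. The T cell and NK cell markers summed to 175.8 CPM in O2, against 1.98 to 28.45 CPM in the other mice. The erythroid markers summed to 1069 CPM in O2, against 96.42 to 480.6 CPM in the other mice. In PDX versus Adult without O2 and O5, edgeR called 14.4% of all genes higher and 10.2% lower. Called higher were 17 of 19 acute-phase genes, 8 of 8 neutrophil markers and 8 of 9 Kupffer cell and macrophage markers. So were 7 of 7 B cell and plasma cell markers and 5 of 7 T cell and NK cell markers, with 0 lower in these lists. These counts include Camp, Mpo and Elane, and Mzb1 of the B cell list, at 0.274 CPM or less in every Adult mouse, which also passed the filter through the aged mice. With all mice these counts were 10, 3, 1, 1 and 0, where 1.76% of all genes were called higher. The part of these markers in the levels of the bile acid enzymes was not tested.

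Promoter sequences from RefSeq (build GRCm38.p6) were matched for 5 of the 10 members, Cyp27a1, Akr1d1, Hsd3b7, Cyp8b1 and Cyp46a1, while Cyp7a1, Cyp7b1, Cyp39a1, Slc27a5 and Baat were not matched. The 250 bases before the gene start that RefSeq gives, which differs from the Ensembl start for Cyp27a1, Hsd3b7 and Cyp46a1, were searched on both strands for 4 motifs, of which 2, CAAAGTCCA and CAAGGNCA, were chosen after the Cyp8b1 sequence had been read, so that their match there is not a finding. TCAAGGNCA, which contains CAAGGNCA, was held by 1.39% of 32851 promoters, TTANGTAA by 2.06%, CAAAGTCCA by 0.384% and CAAGGNCA by 5.53%. The motifs chosen earlier, TCAAGGNCA and TTANGTAA, were in none of the 5. Cyp8b1, with the most positive log2 fold change of the members in Old versus Adult and in PDX versus Adult, called by DESeq2 in both and by edgeR with all 15 mice in neither, and Akr1d1, lower in all aged mice than in Adult, are shown 5′ to 3′, with capitals for the 2 overlapping motif matches in Cyp8b1 and no match in Akr1d1. The windows are chr9:121916306-121916555 on the minus strand and chr6:37529923-37530172 on the plus strand.
Cyp8b1: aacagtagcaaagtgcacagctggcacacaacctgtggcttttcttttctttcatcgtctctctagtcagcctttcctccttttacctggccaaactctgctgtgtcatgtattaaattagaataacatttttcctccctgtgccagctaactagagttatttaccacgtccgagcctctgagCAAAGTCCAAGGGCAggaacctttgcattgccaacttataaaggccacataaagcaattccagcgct
Akr1d1: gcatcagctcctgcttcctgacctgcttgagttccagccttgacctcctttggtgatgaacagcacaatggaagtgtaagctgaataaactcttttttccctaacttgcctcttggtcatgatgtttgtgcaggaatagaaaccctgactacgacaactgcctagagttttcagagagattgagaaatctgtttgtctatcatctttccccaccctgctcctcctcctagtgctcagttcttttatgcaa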

How the data were processed

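The authors aligned 50-base read pairs to the mm10 build with STAR 2.6.0c and deposited counts of read pairs per Ensembl gene for uniquely aligned proper pairs from featureCounts (Subread 1.6.2). The authors also deposited log2-scale values from the variance stabilizing transformation of DESeq2 1.23.10, used here only in alternatives. Here, symbols were matched to 55190 of 55450 gene IDs. Genes were filtered by group (filterByExpr, minimum count 10, minimum total 15), scaled by TMM and fitted over all 15 mice with the quasi-likelihood test of edgeR 4.0.16 in R 4.3.3, with p-values adjusted by Benjamini-Hochberg at 0.05 (and 0.25 for PDX versus Old). Alternatives used DESeq2 1.42.0 and limma 3.58.1, other scalings, no filter, only the mice compared, a replicate block, no O2 and O5 (for gene lists other than the members, chosen after seeing the data), and each mouse left out in turn. Ratios were tested by exact permutation and correlations by 100000 permutations, within groups where group means were removed (numpy 2.4.6). The scripts were tested on simulated counts.

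Members and gene lists were chosen with earlier results of these data known. All 10 members were named, and of each other list at most 4 called genes with the largest fold change, or regulators. Akr1c14, Tat, and genes called without O2 and O5, were named after their values were seen. Dbp and Lcn2 were named for the correlations. Hpx, Prtn3, Cd5l, Cyp2e1, Cela1 and Alb were named as the most abundant of their lists. Library times of day were not used here.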

Additional observations from a re-analysis of the deposited data

Results flagged for a closer look

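Among the 39 combinations of a member or ratio with a group, the Cyp7a1 level of O5 was 13.1 CPM, far below the other Old mice on the log2 scale, with a gap of 0.785 of the range of the group. It is the 1 value found this way, and chance gives about 1 in 20 groups.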

How the results depend on the processing

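The counts of genes called moved most with the processing. For Old versus Adult, against 1072 genes, DESeq2 called 2605, the fit without a filter 665, the fit of only the 10 mice compared 105 and limma on the stabilized values 632, and leaving out 1 mouse gave 156 to 2178. The higher share of calls was 69.5%, and 50% with limma. The count of members, 4, became 2 with upper-quartile scaling, where 1006 of 15808 genes were called. It became 1 without a filter, where 665 of 29465 genes were called, and 0 with only the 10 mice compared, where 105 of 15040 were called. With 1 mouse left out it became 0 to 5. For PDX versus Adult, against 420 genes and 0 members, DESeq2 called 1388 and 2, the fit of only the 10 mice 4529 and 7, and the fit without O2 and O5 4004 and 6, while leaving out 1 mouse gave 166 to 585 genes and 0 to 1 member. For PDX versus Old, DESeq2 called 1 gene against 0. No scaling moved the median of all genes by over 0.1 on the log2 scale.

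Mice with the same number were different animals, and the deviations of same-numbered mice correlated at a mean of -0.168 for Old and Adult, 0.092 for PDX and Old and 0.031 for PDX and Adult, against 0.0435, -0.0225 and -0.0078 for other pairs. The lowest same-numbered pair was at -0.215, -0.0389 and -0.0469, so the numbers were not taken to pair the mice. With a replicate block, edgeR called 237 of 15808 genes and 0 members for Old versus Adult. Slc27a5, Akr1d1, Cyp46a1 and Baat kept their direction, with adjusted p-values of 0.0534, 0.0835, 0.0782 and 0.117 by edgeR. For the ratios the block allows no exact p below 0.0625 with 5 pairs, so that no ratio could pass. For Cyp7a1 over Cyp7b1, PDX was below Old in 5 of 5 same-numbered pairs, which is the smallest p possible, and its adjusted p was 0.562.

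Signs that turned belonged to values that had not passed a test. For Cyp7a1 in Old versus Adult the log2 fold change was 0.0787 with limma and 0.11 without O2 and O5, and -0.481 to 0.31 with 1 mouse left out, and in PDX versus Adult -0.723 to 0.0864. With 1 mouse left out, Cyp7b1 in Old versus Adult gave -0.103 to 0.588 (0.83 without O2 and O5), Cyp39a1 in PDX versus Adult -0.115 to 0.164, Cyp8b1 in PDX versus Old -0.235 to 0.185 and Cyp46a1 in PDX versus Old -0.02 to 0.654. Without O2 and O5, PDX versus Old gave -0.14 for Cyp8b1, -0.0697 for Hsd3b7 and -0.124 for Akr1d1.

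Among the log2 ratios, Cyp7a1 over Cyp7b1 in Old versus Adult was -0.14 without O2 and O5 and -0.548 to 0.529 with 1 mouse left out. With 1 mouse left out it was -1.44 to -0.36 in PDX versus Adult and -1.06 to -0.691 in PDX versus Old, Cyp7a1 over Cyp27a1 was -0.446 to 0.636 in PDX versus Adult, and Cyp8b1 over Cyp7a1 was 0.905 to 1.93 in PDX versus Adult and -0.208 to 1.06 in PDX versus Old.

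Among the correlations without O2 and O5, over all mice r became -0.385 for Cyp7a1 and Nr0b2, -0.395 for Cyp7b1 and Nr0b2, 0.224 for Cyp7a1 and Cyp8b1, and -0.125 for Cyp27a1 and Cyp7b1. It became 0.702 for Cyp8b1 and Cyp7b1, which then passed with an adjusted permutation p of 0.0471, but not by Spearman rho (adjusted permutation p = 0.0754) or with group means removed (r = 0.472, adjusted permutation p = 0.669). The adjustment over 13 pairs included Cyp8b1 and Lcn2, a pooled pair set aside above, whose permutation p of 0.00673 ranked before 0.00725 for Cyp8b1 and Cyp7b1. The pass of Cyp8b1 and Cyp7b1 depended on counting that pair. With group means removed r became -0.375 for Cyp7a1 and Nr0b2, 0.244 for Cyp7a1 and Lcn2, -0.2 for Cyp7b1 and Nr0b2, 0.267 for Cyp7b1 and Lcn2, 0.263 for Cyp7a1 and Cyp8b1, and 0.395 for Cyp7a1 and Cyp7b1, which no longer passed. The fits with fewer mice estimate the spread from fewer samples, but they called more genes in some settings and fewer in others. The cause of the changes with the processing, in these fits or in the others, was not tested. Cyp46a1 rests on few read pairs, which limits its precision.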
